A study of Mus musculus with 10 samples.

Results

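The MYC network is taken here as 9 genes. They are the activators Myc and Mycn, their partner Max, the MAX-bound repressors Mxd1, Mxd3, Mxd4, Mxi1 and Mnt, and Mlx, a MAX-like protein. Their levels were read in sorted marrow cells of mice with acute promyelocytic leukaemia (APL), in which the fusion protein PML-RARα holds myeloid cells at the promyelocyte stage. A probe set was taken for a member when the member was its only symbol in the platform annotation. That gave 21 of the 34945 probe sets with 1 symbol, and for each gene the probe set with the highest mean signal over the 10 arrays was used and the others served as a check. All 9 genes passed the filter on dim signal, among 14581 genes tested.

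The leukaemic cells came from FVB N/J mice aged 8 to 10 weeks that carry a PML-RARα transgene, driven by a promoter that the sources used here do not give. GFP had been introduced with a retrovirus, the cells had been expanded by transplantation into mice of the same strain, and GFP-positive marrow cells were sorted into subsets that the labels name SC, PD and TD without spelling the names out. The groups SC, PD and TD came from untreated marrow, and their leukaemia is described as having arisen spontaneously. RAPD and RATD are PD and TD sorted from marrow exposed to all-trans retinoic acid (ATRA), which binds RARα, at 10 mg/kg, for 5 days according to the treatment protocol and 3 to 5 days according to the source names. An SC group with ATRA was not analysed here. Each group had 2 arrays, which the labels call biological replicates without saying whether they came from separate mice, so a p-value measures the spread between these samples only.

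MYC and MYCN activate transcription as dimers with MAX at a DNA element called the E-box, and their targets include genes of ribosome assembly, nucleotide synthesis and cell cycle entry. MXD proteins, MXI1 and MNT bind MAX as well and bring the SIN3 corepressor with its histone deacetylases to the same element, so that the proportion of activator to repressor matters for a target gene as well as the level of MYC. MLX pairs with some of these repressors and with the glucose-sensing factors MLXIP and MLXIPL. In the myeloid lineage, MYC is known to be high in dividing precursors and MXD1 to rise as granulocytes mature.

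The core E-box CACGTG reads the same on both strands. It was searched in RefSeq promoter windows of 300 bases on mouse build GRCm38.p6, from 250 bases before each gene's start to 50 after it. Of the members, 8 had a window in the table and 4 of these (50%) held the motif, against 2187 of 27025 genes (8.09%) in the whole table and 10 of 25 (40%) in a list of genes known to be activated by MYC. The 4 stretches are shown because the network's own proteins bind this element. The motif is in capitals, each stretch is 30 bases on the gene's strand from 5′ to 3′, and a match is a description of letters, not of binding.
Mxd4, chr5:34187912-34187941, minus strand, motif starting at position -219 from the gene's start: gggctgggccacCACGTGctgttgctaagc
Mnt, chr11:74830789-74830818, plus strand, position -123: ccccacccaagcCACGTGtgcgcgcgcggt
Mlx, chr11:101087238-101087267, plus strand, position -40: ggtgggttggatCACGTGactgagcctcgc
Max, chr12:76962234-76962263, minus strand, position -3: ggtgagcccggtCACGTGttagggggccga
The windows of Mycn, Mxd1, Mxd3 and Mxi1 held no such letters.

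Values are log2 signals as deposited, and a difference is given as log2 ± standard error of a limma fit over all 10 arrays, with p-values adjusted by Benjamini-Hochberg over the 14581 genes and a call at an adjusted p under 0.05. An array's 40th percentile, 4.81 to 5.12, is called the dim-signal level. The number of arrays limits the precision. Replicates of the ATRA groups lay further apart than those of untreated groups (SD of the log2 difference between replicates 0.467 and 0.503, against 0.158 to 0.305, over 6329 bright genes), and the fit takes the spread as equal. RATD replicate 1 lay nearest to TD replicate 2, and RAPD replicate 1 and RATD replicate 2 lay nearest to each other. The groups also differed in markers of cell type: the summed linear signal of 7 measured monocyte and macrophage genes was 40292 to 44608 in TD and 16315 to 36743 in RATD, against 5327 to 11021 in SC, PD and RAPD. Promyelocyte genes, 5 of 5 above the dim-signal level on both arrays of every group, summed to 117234 to 153661 in SC, PD and RAPD and to 64537 to 89517 in TD and RATD. Of 5 erythroid, 4 B cell and 4 T and NK cell markers measured, at most 3, 1 and 2 were above the dim-signal level on both arrays of a group, and no measured marker of these lists stood at the floor of 0 on any array. In bulk samples such as these, fewer cells of a type and less RNA per cell cannot be told apart.

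**Figure D1:**
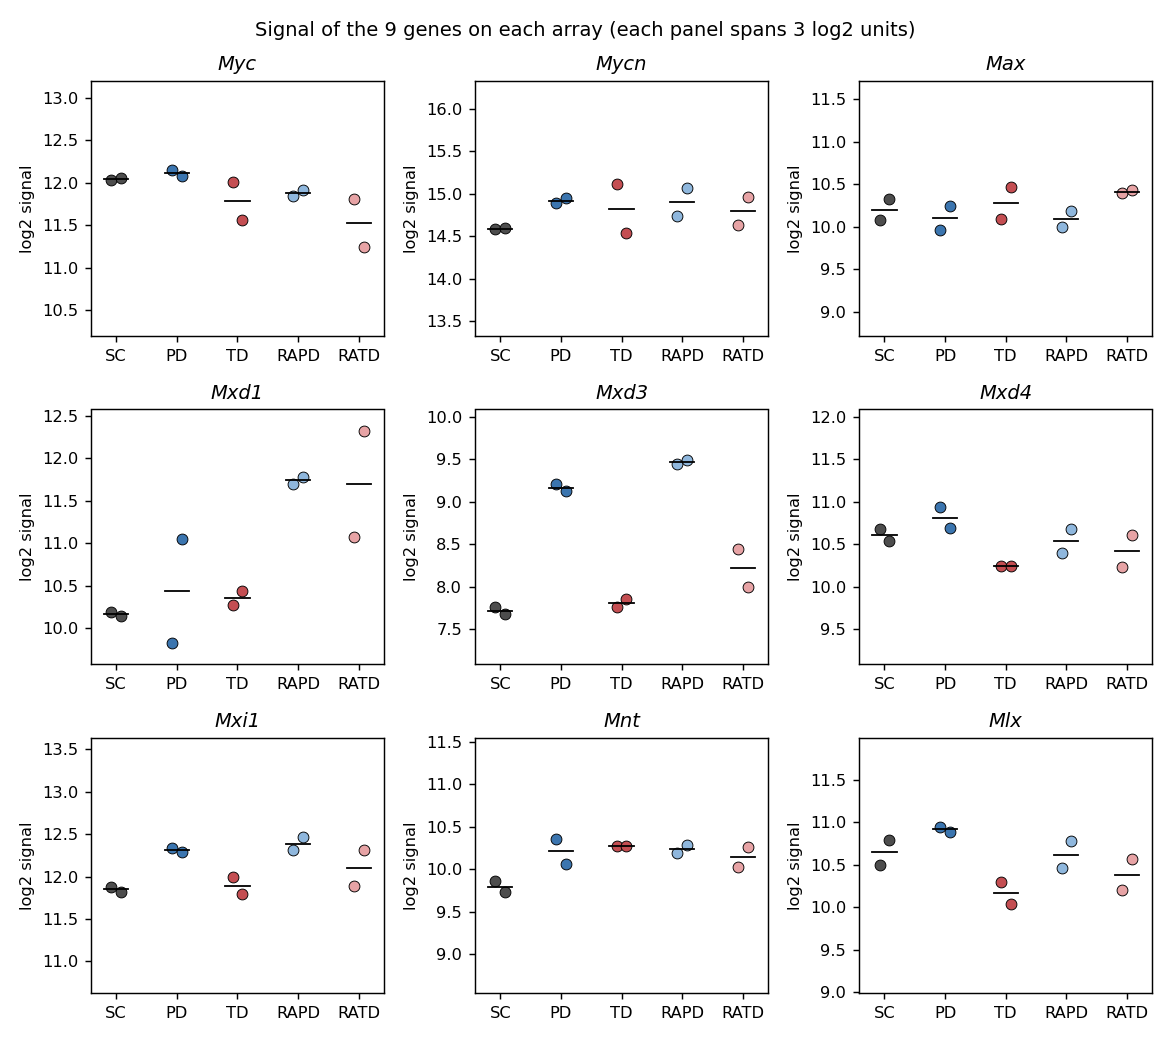
Log2 signal of the 9 genes on each array, by group (horizontal axis); points are arrays, bars are means of 2 arrays, and every panel spans 3 log2 units. Mxd3 is high in PD and RAPD (9.12 to 9.49) and Mxd1 in RAPD and RATD (11.08 to 12.32), while Myc stays between 11.25 and 12.15 on all 10 arrays.

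Myc itself, the activator that gives the network its name, differed little between groups. Its signal was 12.03 and 12.05 in SC, 12.15 and 12.08 in PD, 12.01 and 11.56 in TD, 11.84 and 11.91 in RAPD, and 11.81 and 11.25 in RATD. PD was highest and RATD lowest in the order PD, SC, RAPD, TD, RATD; the arrays of PD, SC and RAPD did not overlap with one another, while RAPD overlapped with TD and TD with RATD. No comparison of Myc passed the test. The difference was 0.07 ± 0.21 in PD against SC (95% interval -0.38 to 0.52, adjusted p = 0.837), -0.33 ± 0.21 in TD against PD (-0.78 to 0.12, adjusted p = 0.255) and -0.35 ± 0.21 in RATD against RAPD (adjusted p = 0.338). With ATRA it was -0.24 ± 0.21 in PD (-0.69 to 0.21, adjusted p = 0.51) and -0.26 ± 0.21 in TD (adjusted p = 0.75). These intervals reach down to -0.78 in TD and to -0.69 with ATRA in PD, so a moderate decrease of Myc RNA is within them. Myc had 1 probe set, so no second reading was at hand.

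Mycn, a paralogue best known from neural and embryonic tissue that also acts in blood progenitors, had probe sets that disagree. The one used read 14.54 to 15.11 on the 10 arrays, near the highest signal of any probe set on an array (15.42 to 15.95), whereas the other 2 read 1.87 to 5.49 and were above the dim-signal level on 3 and 2 arrays. The SC arrays (14.58 and 14.60) lay below the PD arrays (14.89 and 14.95), a difference of 0.33 ± 0.20 (adjusted p = 0.26), and all other neighbouring groups overlapped except RATD and SC. The level of Mycn RNA in these cells therefore rests on which probe set is read.

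Max, the shared partner of the activators and the MXD proteins, spanned the narrowest range of the 9 probe sets used. Its signal ran from 9.96 in PD replicate 1 to 10.47 in TD replicate 2, all neighbouring groups in its order overlapped, and its differences ran from -0.10 ± 0.20 in PD against SC to 0.32 ± 0.20 in RATD against RAPD (adjusted p = 0.36).

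Mxd1, the repressor associated with granulocyte maturation, was higher after ATRA in both subsets. It read 10.19 and 10.15 in SC, 9.83 and 11.05 in PD, 10.28 and 10.45 in TD, 11.70 and 11.79 in RAPD, and 11.08 and 12.32 in RATD. Every ATRA array lay above every untreated array, though the lowest of the first (11.08, RATD replicate 1) was close to the highest of the second (11.05, PD replicate 2). Within a subset the difference missed the threshold: 1.30 ± 0.39 in RAPD against PD (95% interval 0.44 to 2.16, 2.47-fold, adjusted p = 0.0624) and 1.34 ± 0.39 in RATD against TD (0.48 to 2.20, 2.53-fold, adjusted p = 0.227). The ATRA difference in TD minus that in PD was 0.04 ± 0.56 (adjusted p = 0.98) with a 95% interval of -1.18 to 1.26, so the sizes of the 2 rises could not be told apart at this number of arrays.

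A comparison of the 4 ATRA arrays with the 4 untreated PD and TD arrays, added after these values had been seen, gave 1.32 ± 0.28 for Mxd1 (95% interval 0.71 to 1.93, 2.50-fold, higher on 4 of 4 arrays, adjusted p = 0.0228). It was the only member called there, where 5.38% of all genes were called, 3.08% were called higher and 2.52% had 4 arrays wholly above the other 4. The call was lost without PD replicate 1 (1.02, adjusted p = 0.0904), RATD replicate 2 (1.01, adjusted p = 0.0565), RAPD replicate 1 (adjusted p = 0.0607), TD replicate 1 (adjusted p = 0.0968) or TD replicate 2 (adjusted p = 0.0773), without the intensity trend (adjusted p = 0.154) and with the probe set of largest spread (1.14, adjusted p = 0.29), while the difference stayed positive without any array in turn. Another Mxd1 probe set, above the dim-signal level on all arrays, read 9.07 to 10.28 on the 6 untreated arrays and 10.47 to 11.71 on the ATRA arrays, with differences of 1.37 ± 0.38 in PD and 0.89 ± 0.38 in TD. Beside this rise, the summed signal of 6 neutrophil granule genes was 143459 to 186584 in RAPD against 111633 to 121354 in PD, and 130838 to 181520 in RATD against 73877 to 108169 in TD; their part in the Mxd1 difference was not tested.

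Mxd3, the family member found in dividing cells, separated the PD subset from the others. It read 7.76 and 7.67 in SC, 9.20 and 9.12 in PD, 7.75 and 7.85 in TD, 9.44 and 9.49 in RAPD, and 8.44 and 7.99 in RATD. All 4 arrays of PD and RAPD lay above all 6 arrays of SC, TD and RATD, and in the order RAPD, PD, RATD, TD, SC only TD and SC overlapped. Mxd3 was higher in PD than in SC by 1.45 ± 0.23 (95% interval 0.95 to 1.94, 2.72-fold, adjusted p = 0.0018). It fell by 1.36 ± 0.23 on the log2 scale in TD against PD (2.56-fold lower, adjusted p = 0.00092) and by 1.25 ± 0.23 in RATD against RAPD (adjusted p = 0.0165). PD against SC and TD against PD share the PD arrays, while RATD against RAPD shares none with either.

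With ATRA the values of Mxd3 did not pass the test: 0.31 ± 0.23 in RAPD against PD (adjusted p = 0.439) and 0.41 ± 0.23 in RATD against TD (adjusted p = 0.579), with higher arrays in each case. Its other probe sets gave 0.20 ± 0.24 and 0.19 ± 0.35 in RAPD against PD, and 0.06 ± 0.24 and 0.58 ± 0.35 in RATD against TD. The other 2 probe sets of Mxd3 gave 0.82 ± 0.24 and 0.75 ± 0.35 for PD against SC, -0.95 ± 0.24 and -1.26 ± 0.35 for TD against PD, and -1.09 ± 0.24 and -0.87 ± 0.35 for RATD against RAPD. They share the direction of the first and are smaller for PD against SC. Mxd3 stayed called in PD against SC and in TD against PD in all 20 alternative analyses (1.38 to 1.85 and -1.82 to -1.30), whereas the RATD against RAPD call was lost in 4 of them: without RAPD replicate 2 (adjusted p = 0.0888), without the intensity trend (0.0825), with array weights (0.064) and with only the arrays compared (0.164).

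**Figure D2:**
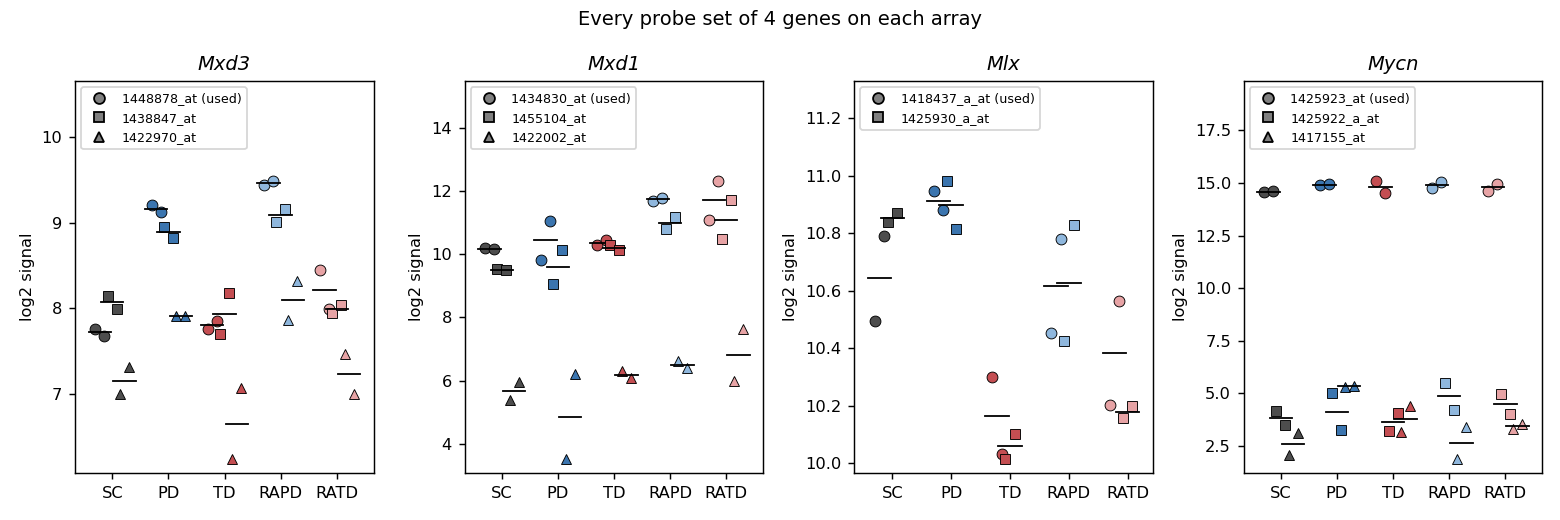
Log2 signal of every probe set of Mxd3, Mxd1, Mlx and Mycn on each array, by group; symbols mark probe sets, bars are means of 2 arrays, and the vertical scales differ. The 3 Mxd3 probe sets are higher in PD than in TD on every array, the 2 brighter Mxd1 probe sets are highest in RAPD and RATD, both Mlx probe sets have their lowest mean in TD, and 2 of 3 Mycn probe sets lie at 1.87 to 5.49.

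Mlx, the MAX-like partner, was lowest in TD. It read 10.49 and 10.79 in SC, 10.95 and 10.88 in PD, 10.30 and 10.03 in TD, 10.46 and 10.78 in RAPD, and 10.20 and 10.56 in RATD. The TD arrays lay below all SC, PD and RAPD arrays and overlapped with RATD. Mlx fell by 0.75 ± 0.20 in TD against PD (adjusted p = 0.0128), and the value for TD against SC was -0.48 ± 0.20 (adjusted p = 0.191). A second Mlx probe set read 10.02 and 10.10 in TD against 10.98 and 10.82 in PD, a difference of -0.84 ± 0.18. It read 10.84 and 10.87 in SC, a difference of -0.79 ± 0.18 in TD against SC. The call in TD against PD was lost without PD replicate 1 (adjusted p = 0.084) and without TD replicate 2 (adjusted p = 0.112).

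Mxd4, a repressor of differentiating cells, gave a call that depended on the probe set. It read 10.68 and 10.54 in SC, 10.93 and 10.69 in PD, 10.25 and 10.24 in TD, 10.40 and 10.68 in RAPD, and 10.24 and 10.61 in RATD. The TD arrays were below those of SC, PD and RAPD, and Mxd4 fell by 0.57 ± 0.19 in TD against PD (adjusted p = 0.0378). Its other 3 probe sets gave -0.27 ± 0.26, -0.01 ± 0.21 and 0.29 ± 0.90 for the same comparison, and the call was lost in 9 of 20 alternative analyses.

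Mxi1 and Mnt, the broadly expressed repressors of the network, moved less than Mxd3. Mxi1 read 11.82 to 11.87 in SC and 12.29 to 12.34 in PD, a difference of 0.47 ± 0.17 that missed the threshold (adjusted p = 0.0665), and its value was -0.42 ± 0.17 in TD against PD (adjusted p = 0.0802). A second Mxi1 probe set gave the opposite sign for PD against SC, -0.43 ± 0.29. Mnt was lowest in SC (9.86 and 9.73), below all 8 other arrays (10.03 to 10.36), with 0.41 ± 0.18 in PD against SC (adjusted p = 0.12) and 0.47 ± 0.18 in TD against SC (adjusted p = 0.147). Its second probe set was above the dim-signal level on 7 of 10 arrays and adds little.

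**Figure D3:**
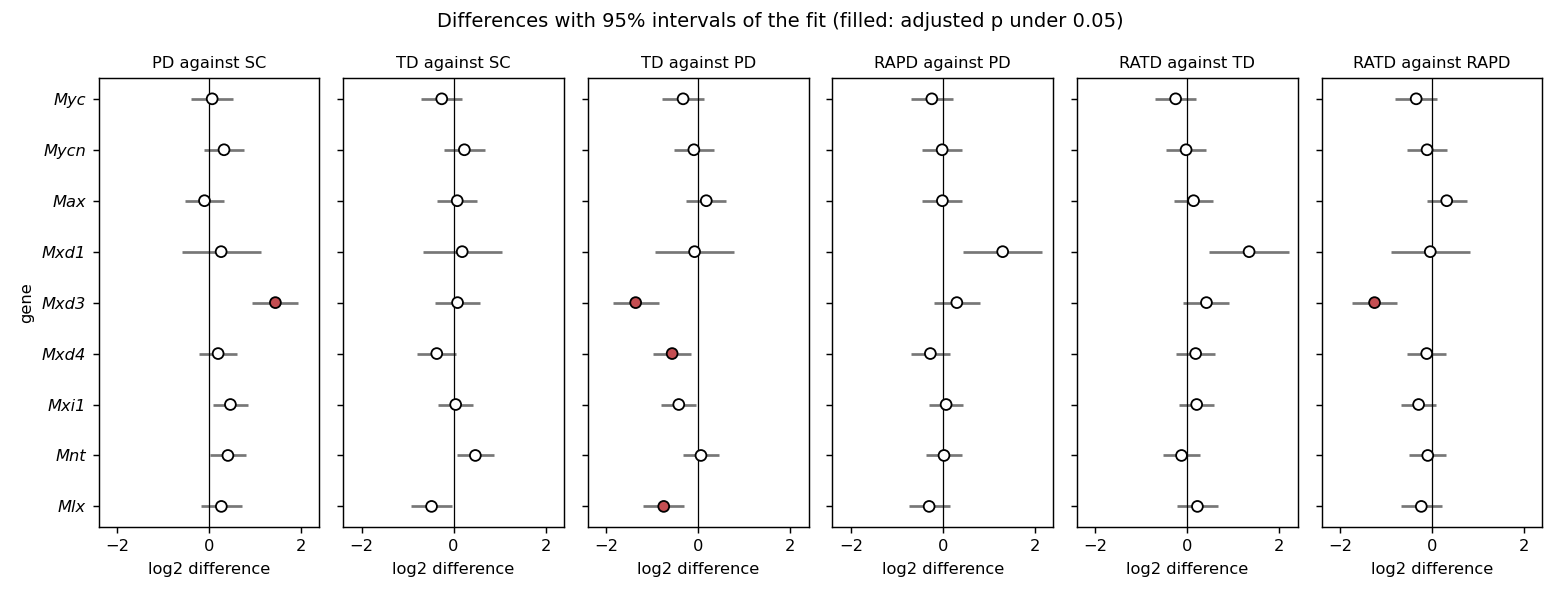
Log2 difference of each gene (vertical axis) in 6 comparisons, with 95% intervals of the fit; filled points passed at an adjusted p under 0.05. The filled points are Mxd3 in PD against SC (1.45), in TD against PD (-1.36) and in RATD against RAPD (-1.25), Mlx and Mxd4 in TD against PD (-0.75 and -0.57).

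Counted together, members were called in 3 of the 6 comparisons between groups. In PD against SC, 1 of 9 was called (25.8% of all genes were), and 7 had PD arrays wholly above SC arrays, against 41.4% of all genes. In TD against PD, 3 of 9 were called, all lower (17.2% of all genes were called lower and 35.3% in either direction), and 5 had TD arrays wholly below PD arrays against 38.2%. In RATD against RAPD, 1 of 9 was called (4.78% of all genes).

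The remaining comparisons called no member with limma. Of all genes, 8.15% were called in TD against SC, 8.04% in RAPD against PD, 0.288% in RATD against TD and 0.24% for the ATRA difference in TD minus that in PD. At an unadjusted p under 0.05 these comparisons held 2, 1, 1 and 0 of the 9 members, against 21.9%, 26.6%, 10.7% and 14.9% of all genes. The median of the 9 differences was 0.27 in PD against SC, where the median of all genes was 0.20, and -0.33 in TD against PD, where it was -0.13. Scaling the arrays differently moved the median of all genes in these comparisons, to 0.31 and -0.32 after quantile normalization and to 0.60 and -0.58 after equalising the 75th percentiles, and the share of higher calls with it, from 41.2% to 54.0% and 72.9% in PD against SC and from 51.1% to 39.5% and 27.7% in TD against PD. Under the last scaling 6055 of the 14581 genes were called in PD against SC and 6450 in TD against PD, in either direction. Among the members, 6 were called higher in PD against SC. In TD against PD 5 were called lower, Myc among them (-0.78, adjusted p = 0.0104).

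On the log2 scale, the 75th percentile of signal was lowest for the PD arrays and RAPD replicate 2 (8.28 to 8.41, against 8.60 to 8.78). The differences of genes also ran with the length of the gene in the genome: across 6320 bright genes the Spearman correlation, over genes that share the same arrays, was -0.475 in PD against SC and 0.447 in TD against PD. In the shortest 25% of genes, which holds Myc, Mycn, Mxd3 and Mlx, the median difference was 0.51 in PD against SC, -0.60 in TD against PD and -0.27 in RATD against RAPD. Mxd3 exceeded those medians in size in all 3, and the part of gene length in the members' differences was not tested. In the longest 25% of genes the median difference was -0.44 in PD against SC and 0.54 in TD against PD.

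**Figure D4:**
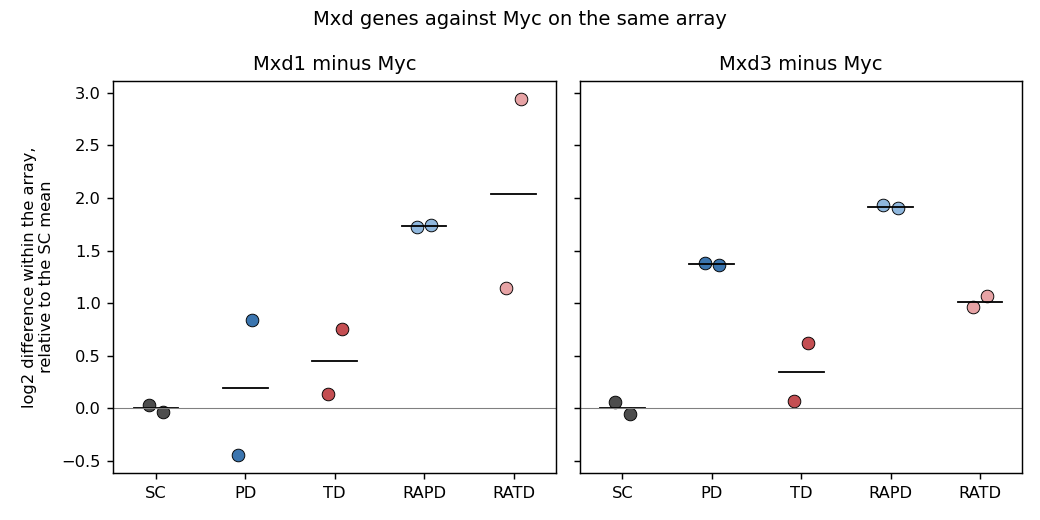
Log2 signal of Mxd1 (left) or Mxd3 (right) minus that of Myc on the same array, relative to the mean of the SC arrays; points are arrays and bars means of 2 arrays. Mxd1 minus Myc is 1.14 to 2.94 in RAPD and RATD and -0.45 to 0.84 in PD and TD; Mxd3 minus Myc is 1.37 to 1.93 in PD and RAPD and 0.07 to 1.07 in TD and RATD.

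In a difference between probe sets on the same array, a constant scaling factor of that array cancels, so Mxd1 and Mxd3 were set against Myc in that way, as a description. Quantile normalization, which is not a constant factor, does move it: in PD against SC it gave 1.76 for Mxd3 and -0.08 for Myc, against 1.45 and 0.07 as deposited. Relative to SC, Mxd1 minus Myc was -0.45 and 0.84 in PD, 0.13 and 0.76 in TD, 1.73 and 1.75 in RAPD, and 1.14 and 2.94 in RATD. The 4 ATRA arrays were above the 4 untreated ones, with group means of 1.74 and 2.04 against 0.19 and 0.44. Mxd3 minus Myc was 1.38 and 1.37 in PD, 1.93 and 1.91 in RAPD, 0.07 and 0.62 in TD, and 0.96 and 1.07 in RATD. For the Mxd3 probe set used, the ATRA arrays were higher than the untreated arrays in each subset as well. Another Mxd3 probe set, not set against Myc, gave 0.06 ± 0.24 in RATD against TD. The values relative to Myc show that the Mxd1 and Mxd3 probe sets changed unequally to that of Myc, not which of them held still. Mxd4, Mxi1 and Mnt were not set against Myc. In RAPD against PD they gave -0.27, 0.07 and 0.03, beside -0.24 for Myc.

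The genes on which MYC acts were followed through a list written from general knowledge. This list and those below were chosen with earlier results of these data known, so they are not independent of these arrays. Of 30 measured genes known to be activated by MYC, 18 fell and 5 rose in TD against PD (17.2% and 18% of all genes), with a median of -0.84 against -0.13 for all genes. Shmt2, a mitochondrial enzyme of one-carbon metabolism, fell by 2.39 ± 0.19 (adjusted p = 2.51e-05), Fbl, a methyltransferase of ribosomal RNA, by 1.42 ± 0.21, Phb2, a mitochondrial prohibitin, by 1.25 ± 0.18 and Nme1, a nucleoside diphosphate kinase, by 1.21 ± 0.16. The 5 that rose, named here after their values were seen, were Dkc1 (1.06), Tfrc (1.04), Wdr43 (0.88), Ncl (0.82) and Eif4e (0.72). The 5 higher and 18 lower calls were 3 and 16 after quantile normalization and 1 and 21 after equalising the 75th percentiles. Under these scalings 5743 and 6450 of all 14581 genes were called, 39.5% and 27.7% of them higher. The monocyte markers that were higher in TD and the correlation with gene length given above accompany this split, and their part in it was not tested.

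Against SC, the same 30 genes gave 0 higher and 5 lower in TD (4.96% and 3.2% of all genes), with a median of -0.44 (all genes -0.04). Shmt2 had the smallest p among them and fell by 1.19 ± 0.19, and the cell cycle kinase gene Cdk4 fell by 0.87 ± 0.23 and Nolc1, a nucleolar chaperone, by 0.84 ± 0.19. The 5 lower calls became 1 without either SC array or without either TD array, 2 without either PD array and 8 without either RATD array. In PD against SC, 7 rose and 6 fell (10.6% and 15.2% of all genes), with a median of 0.42 (all genes 0.20): Shmt2 rose by 1.20 ± 0.19 and Nme1 by 0.92 ± 0.16, while Tfrc, the transferrin receptor, fell by 1.73 ± 0.32 and Ncl, nucleolin, by 1.50 ± 0.28. After equalising the 75th percentiles these counts were 19 and 5. Under this scaling 6055 of all 14581 genes were called there, 72.9% of them higher. As deposited, both counts were smaller without PD replicate 1, a fit with 1 PD array.

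With ATRA, 6 of the 30 fell and 0 rose in RAPD against PD (3.19% and 4.86% of all genes), with a median of -0.50 against -0.01. Shmt2 fell by 1.29 ± 0.19, Hspe1, a mitochondrial chaperonin subunit, by 1.15 ± 0.27, Cad, the enzyme that starts pyrimidine synthesis, by 1.03 ± 0.23 and Phb2 by 0.82 ± 0.18. The 6 lower calls became 15 after equalising the 75th percentiles, 13 without either RATD array, 3 without either TD array, 1 without either SC array, PD replicate 2 or RAPD replicate 1, and 0 without PD replicate 1, while the median stayed between -0.60 and -0.50 without any array in turn. After equalising the 75th percentiles, 1842 of all 14581 genes were called in RAPD against PD, 34.8% of them higher. In RATD against TD, limma called 0 of the 30 (0 at an unadjusted p under 0.05), and the median was -0.08. For the ATRA difference in TD minus that in PD, limma called 0 of the 30 genes (10 at an unadjusted p under 0.05, 14.9% of all genes), with a median of 0.43 against 0.02 for all genes. Over 6320 bright genes the correlation with gene length was 0.383 in RAPD against PD, -0.076 in RATD against TD and -0.419 for that contrast. The shortest 25% of genes had medians of -0.25, 0.05 and 0.31. The part of gene length in the values of this list was not tested. In RATD against RAPD, 2 fell (2.13% of all genes), Shmt2 by 1.01 ± 0.19 and Nme1 by 0.68 ± 0.16, with a median of -0.33 that was -0.52 without RATD replicate 1, where 9 fell, and -0.02 without RATD replicate 2.

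**Figure D5:**
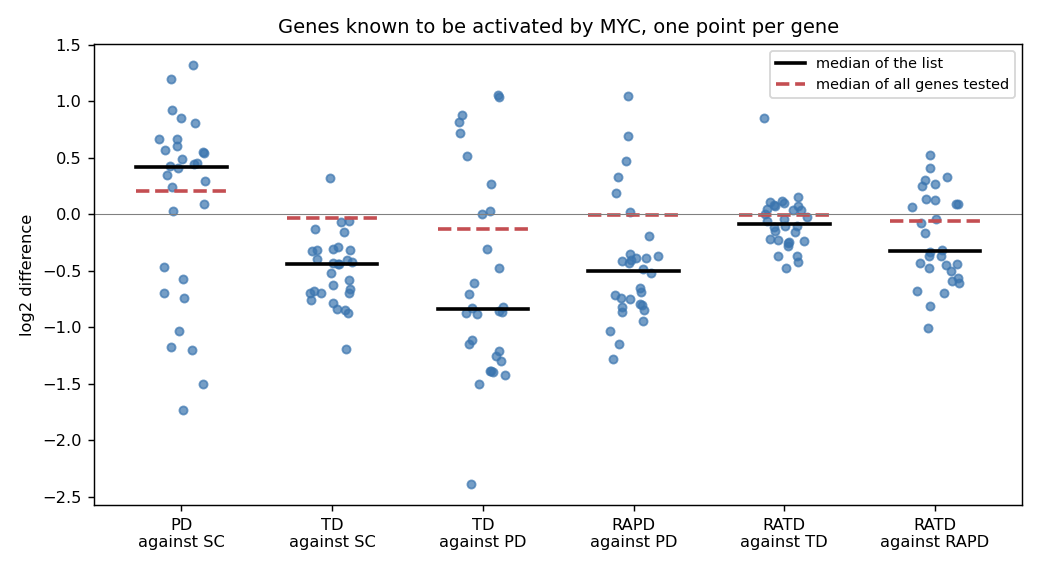
Log2 difference of each of 30 genes known to be activated by MYC (points) in 6 comparisons, with the median of the list (solid bar) and of all 14581 genes (dashed bar). The list's median lies below that of all genes in TD against PD (-0.84 against -0.13) and in RAPD against PD (-0.50 against -0.01). It is also below in TD against SC (-0.44 against -0.04) and in RATD against RAPD (-0.33 against -0.06). It lies above in PD against SC (0.42 against 0.20) and close to that of all genes in RATD against TD (-0.08 against -0.01).

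Cofactors that MYC recruits to open chromatin gave 1 higher and 6 lower calls of 11 in TD against PD (18% and 17.2% of all genes), with a median of -0.73 against -0.13 for all genes. The paired ATPases Ruvbl1 and Ruvbl2 fell by 1.16 ± 0.20 and 1.62 ± 0.27, the chromatin subunit Actl6a by 1.17 ± 0.18 and Wdr5, a histone methyltransferase subunit, by 0.88 ± 0.15. Ruvbl1 and Ruvbl2 also fell in TD against SC (by 0.84 ± 0.20 and 1.20 ± 0.27) and in RAPD against PD (by 0.87 ± 0.20 and 1.37 ± 0.27). In PD against SC limma called 0 of the 11 (5 at an unadjusted p under 0.05), against 25.8% (37.7%) of all genes. There were 3 higher calls after quantile normalization and 8 after equalising the 75th percentiles. Under these scalings 4102 and 6055 of all 14581 genes were called, 54.0% and 72.9% of them higher.

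The corepressor through which MXD proteins act, SIN3 with its histone deacetylases, had members called in both directions. Of 12 measured genes, 3 rose and 3 fell in PD against SC (10.6% and 15.2% of all genes): the SIN3-bound subunit Arid4b fell by 2.55 ± 0.39 and the scaffold Sin3a by 1.26 ± 0.24, while the paralogous scaffold Sin3b rose by 0.72 ± 0.17 and the histone chaperone Rbbp4 by 0.64 ± 0.14. In TD against PD each of these went the other way, Sin3a rising by 1.76 ± 0.24 and Sin3b falling by 0.93 ± 0.17, among 2 higher and 5 lower (18% and 17.2% of all genes); both comparisons use the PD arrays. With a common 75th percentile the counts in PD against SC were 7 higher and 3 lower. Under this scaling 6055 of all 14581 genes were called there, 72.9% of them higher. Under ATRA, 1 of 12 fell in RAPD against PD (3.19% of all genes), the subunit gene Sap30 (by 0.70 ± 0.17).

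Regulators of MYC protein turnover, which RNA levels of Myc do not reflect, gave 1 higher and 6 lower of 13 in PD against SC (10.6% and 15.2% of all genes), with a median of -0.62 against 0.20 for all genes. The ubiquitin ligase gene Huwe1 fell by 2.15 ± 0.34, Cip2a, an inhibitor of the phosphatase that destabilises MYC, by 1.76 ± 0.31 and the kinase gene Gsk3b by 1.12 ± 0.20, and the ligase gene Stub1 rose by 0.73 ± 0.17. In TD against PD, 5 rose and 2 fell (18% and 17.2% of all genes), with Huwe1 at 1.98 ± 0.34, Gsk3b at 1.35 ± 0.20, Aurka at -1.08 ± 0.18 and Stub1 at -0.96 ± 0.17. These counts depended on scaling. With a common 75th percentile they were 6 higher and 3 lower in PD against SC. In TD against PD they were then 2 higher and 4 lower. Of all 14581 genes, 6055 were called under this scaling in PD against SC, 72.9% of them higher. In TD against PD 6450 were called, 27.7% of them higher. In RAPD against PD and RATD against TD limma called 0 of the 13 (7 and 0 at an unadjusted p under 0.05, against 26.6% and 10.7% of all genes).

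Of 8 genes known to be repressed by MYC, 3 rose and 1 fell in TD against SC (4.96% and 3.2% of all genes). Tgfbr2, a TGF-β receptor, rose by 1.75 ± 0.20 and Ndrg1 by 1.63 ± 0.24, while the chaperone gene Clu fell by 3.23 ± 0.28. The cell cycle inhibitor gene Cdkn2b was not above the dim-signal level on either SC array (mean 3.13) and was at least 1.99-fold higher in TD (mean 5.82, adjusted p = 0.00455), a bound set against the mean dim-signal level of the SC arrays. In PD against SC 2 rose and 1 fell (10.6% and 15.2% of all genes), Cdkn2b being at least 2.33-fold higher. In TD against PD 2 rose and 2 fell (18% and 17.2% of all genes). Tgfbr2 rose by 1.34 and Ndrg1 by 0.83, while Ndrg2, by 2.07, and Clu fell. In RAPD against PD the list gave 1 call, a fall of Cdkn1a, the p21 inhibitor gene, by 1.37 ± 0.23 (3.19% of all genes were called lower). Of 5 other genes of the extended network, the MAX-binding repressor gene Mga fell by 2.45 ± 0.45 in PD against SC (15.2% of all genes fell). It rose by 1.84 ± 0.45 in TD against PD (18% of all genes rose), and no other was called in a comparison. The part of gene length in the values of Mga was not tested.

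Genes whose pattern over the 10 arrays was most like a member's were ranked by Pearson r among 6321 bright genes, as a description. Nearest to Myc were Nop56 (r = 0.940), a nucleolar protein of the list of genes activated by MYC, Rab34 (0.930), Nubpl (0.929), Mrpl16 (0.924) and Atad3a (0.923). Nearest to Mxd1 were Tirap (0.952) and Nod1 (0.949), both of innate immune signalling, Mtmr3 (0.937), Ankrd22 (0.932) and Olfm4 (0.931), a neutrophil granule protein. For Mxd3, added after its values had been seen, they were Atp6v1f (0.956), Ccne1 (0.955), which drives entry into S phase, Csrp2 (0.955), AI413582 (0.954) and Tsc22d1 (0.954).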

How the data were processed

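RNA of 10 samples (5 groups, 2 arrays each, grouped by sample title) was extracted with Trizol and hybridised as biotin-labelled cRNA made from 6 µg, per the labels' protocols. The authors' deposited values are log2 signals of 45037 probe sets made with MAS5, per the submitters' processing notes; the sources used here do not give its version, and the scale was judged from the values. The deposited scaling was kept and no pseudocount was added. Probe sets were kept (32686) when at least 2 arrays read above their own 40th percentile, and the brightest with 1 symbol stood for a gene. RefSeq identifiers matched 34741 probe sets and changed 0 symbols. Some listed genes, among them Sap18, Mrto4 and Phb, are not reported here.

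The fit used limma 3.58.1 under R 4.3.3 (lmFit with 5 group means over 10 arrays, eBayes with trend, 5 residual and 6.57 prior degrees of freedom, two-sided), after the fit was tested on simulated data. Named were all members, up to 4 called genes of smallest p per list and comparison, and the 5 genes of mean log2 at least 9 most correlated with Myc or Mxd1. The members and lists were chosen with earlier results of these data known. Alternatives were 2 scalings, 2 filters, a pseudocount of 16, another probe set per gene, 2 variance models, a replicate block, only the arrays compared, and each array left out in turn. Arrays of equal replicate number did not deviate together (correlation of deviations -0.50 to 0.10 over 10 pairs of groups). A negative value means that arrays of unlike number deviated together, and its cause was not tested.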

Additional observations from a re-analysis of the deposited data

How the results depend on the processing

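The 9 genes in the 6 comparisons between groups, the ATRA difference in TD minus that in PD, and the added comparison of the ATRA groups with untreated PD and TD were recomputed under 20 alternatives each. The number of all genes called moved with the scaling too. In PD against SC it was 3766 as reported, 4102 after quantile normalization and 6055 with a common 75th percentile. In TD against PD it was 5144, 5743 and 6450. Mxd3 stayed called in PD against SC and TD against PD throughout. The number of members called in PD against SC was 1 as reported, 2 after quantile normalization, 6 with a common 75th percentile, 3 with array weights, 3 with only the arrays compared, and 1 to 2 without each array in turn. In TD against SC it was 0, with 2 under array weights, 1 with the probe set of largest spread, 3 with only the arrays compared, and 0 without any array. In TD against PD it was 3, with 5 at a common 75th percentile and 1 to 4 without each array. There Mxd4 reversed to 0.29 (adjusted p = 0.858) with its probe set of largest spread, which was above the dim-signal level on 7 arrays. The number of all genes called is given here for the scalings only. Member counts under array weights, another probe set, only the arrays compared or a left-out array therefore cannot be set against a share of all genes.

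In RAPD against PD it was 0, with 1 (Mxd1) using only the arrays compared and 0 to 1 without each array: Mxd1 was 0.69 (adjusted p = 0.431) without PD replicate 1 and 1.91 (adjusted p = 0.0441) without PD replicate 2. In RATD against TD it was 0, and 0 to 1 without each array: Mxd1 was 1.96 (adjusted p = 0.0115) without RATD replicate 1 and 0.72 (adjusted p = 0.963) without RATD replicate 2. In RATD against RAPD the 1 call (Mxd3) became 0 without the intensity trend, with array weights and with only the arrays compared, and was 0 to 1 without each array. In the added comparison the 1 call (Mxd1) became 0 without the trend (and 0 with the probe set of largest spread), and was 0 to 1 without each array: it was lost without PD replicate 1, RAPD replicate 1, either TD array or RATD replicate 2, and the difference was 1.01 to 1.63. The cause of these changes was not tested, and some of these fits also held fewer arrays.

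Arrays of equal replicate number did not deviate together. With that number as a block, the count in RAPD against PD went from 0 to 1 (Mxd1, adjusted p = 0.0415). The block changed no other count of members by over 1.5 times. With 2 arrays a group, the 95% interval of Myc in PD against SC ran from -0.38 to 0.52 and that of Mxd1 in RAPD against PD from 0.44 to 2.16, which limits the size of change that could be resolved.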
